A study of Mus musculus with 36 samples.

Results

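Ribosomal protein genes of the cytosolic ribosome were followed through brown adipocyte differentiation in 36 RNA sequencing libraries. The group was defined by gene symbol alone and not by any measured value. It held the protein-coding GENCODE M21 genes whose symbol starts with *Rpl* or *Rps* and a digit, together with *Rplp0*, *Rplp1*, *Rplp2* and *Rpsa*, without the S6 kinases (*Rps6k*) and without symbols marked as pseudogenes. This gave 86 of the 55536 genes counted, or of 22028 protein-coding genes, with 52 symbols of the large subunit and 34 of the small subunit. The members lie on 19 chromosomes, and 30 of them carry a snoRNA gene inside them. The symbol rule also takes in *Rps19bp1*, whose product binds a ribosomal protein but is not one itself, and it misses some proteins of the ribosome with other symbols, such as those of *Fau* and *Rack1*.

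The cells were brown pre-adipocytes of 2 *Rxra*-/- clones, numbered 48 and 66, in which *Rxra* had been disrupted with Cas9. Each clone was given back *Rxra* by retrovirus, either the wild type (*Rxra*WT) or a form with alanine in place of the serine at residue 22 (*Rxra*SA), so that WT and SA cells share the knockout background, and each clone descends from a single cell. Libraries were made before differentiation (day 0), at day 2 and at day 6. The cells received insulin and triiodothyronine, and during the first 2 days also dexamethasone, isobutylmethylxanthine and indomethacin. Each clone, genotype and day had 3 replicates, which the GEO description calls technical and the paper independent, so p-values measure the spread between these libraries. All libraries of clone 48 were in pool 1 and all of clone 66 in pool 2, so clone and pool cannot be told apart.

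The cytosolic ribosome joins a small subunit, which reads the mRNA, to a large subunit, which forms the peptide bond, and most of its proteins are present in a single copy. RPLP0, RPLP1 and RPLP2 form the stalk of the large subunit that recruits elongation factors, and RPSA sits on the small subunit close to the mRNA exit. Most of these mRNAs start with a C followed by an unbroken run of pyrimidines, the 5′ terminal oligopyrimidine (TOP) motif, through which mTORC1 and LARP1 control their translation. Ribosome production is one of the largest costs of a growing cell.

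The start sites listed by RefSeq showed this feature more often in the members than in other genes. Start sites from GRCm38.p6 were at hand for 66 members and 27025 genes in all. A C at the start site followed directly by enough C and T to make a run of at least 5 was found in 14 members (21.2%) and in 3.01% of all genes. A run of at least 5 C or T that covers the start site, which includes the first kind, was found in 21 members (31.8%) and in 11.8% of all genes. Only the strand of the gene was read, and a gene with several listed starts counted if any of them matched. The windows below run from 15 bases before to 14 bases after the listed start base and are shown for 8 members named in the results, among them those that rose most (*Rplp2*) and fell most (*Rps2*). Capitals mark the pyrimidine run at the start or, where that is shorter than 5, the longest run within 10 bases of it. *Rps6*, *Rpl28*, *Rplp2* and *Rps27* have the run over the start base, *Rpl22l1* and *Rpl12* have it 1 base after the start, *Rps2* has it 4 bases after the start, and *Rplp0* has its longest run upstream of the listed start.
Rps6 (chr4:86857353-86857382, minus strand): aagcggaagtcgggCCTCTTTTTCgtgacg
Rpl28 (chr7:4792950-4792979, plus strand): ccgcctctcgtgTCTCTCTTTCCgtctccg
Rplp2 (chr7:141447636-141447665, plus strand): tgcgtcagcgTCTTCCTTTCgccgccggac
Rps27 (chr3:90213634-90213663, minus strand): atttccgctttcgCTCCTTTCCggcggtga
Rpl22l1 (chr3:28805493-28805522, plus strand): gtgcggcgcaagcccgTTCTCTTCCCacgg
Rpl12 (chr2:32961697-32961726, plus strand): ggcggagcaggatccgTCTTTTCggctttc
Rps2 (chr17:24720048-24720077, plus strand): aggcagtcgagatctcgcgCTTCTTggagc
Rplp0 (chr5:115559452-115559481, plus strand): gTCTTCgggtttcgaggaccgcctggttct

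Total counts per library lay between 11351078 and 24349263, and the members together held between 383752 and 796635 of them. Of the cell type markers, the 7 brown adipocyte genes had summed medians of 128 CPM (counts scaled to library size) at day 0, 2903 at day 2 and 6427 at day 6. The largest medians among them at day 6 were those of *Fabp4* (3180 CPM) and *Adipoq* (2131 CPM), which the paper used as markers of adipogenesis. But *Ucp1*, the defining gene of brown fat, stayed at or below 0.303 CPM in every library, and *Cidea* at or below 1.64 CPM. *Ppargc1a* had medians of 13.2, 19.5 and 23.0 CPM on the 3 days. The 4 pre-adipocyte genes, summed in the same way, had median sums of 140, 29.9 and 23.1 CPM, and the 7 proliferation genes 3638, 2759 and 2281. The summed markers of other cell types stayed low, with at most 4.41, 1.47 and 29.9 CPM for muscle on days 0, 2 and 6, of which *Des* made up up to 29.7, at most 11.8 CPM for immune cells and under 1 CPM for endothelial and epithelial cells. The part of these cell types in the results below was not tested. One library stood apart, replicate 1 of clone 48 SA at day 0, which had the lowest total count and 3.06% of its counts in *Lars2*, a gene at or below 0.204% in all others. Without it the number of members higher at day 2 than at day 0 was again 64, with 2 lower, and 64 in place of 62 were lower at day 6 than at day 2. *Rxra* itself was read at 90.7 to 228 CPM at day 0, 396 to 752 at day 2 and 185 to 355 at day 6, a value that cannot separate the disrupted gene from the retroviral copy.

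The members took the largest share of counts at day 2. Of the counts of protein-coding genes they held 3.00% to 4.67% at day 0 (median 3.48%), 3.06% to 5.33% at day 2 (median 3.77%) and 2.49% to 4.10% at day 6 (median 3.07%, 12 libraries per day). The ranges of the 3 days overlapped widely. Within a clone, genotype and day the library numbered 3 in the labels had the lowest share in 10 of 12 groups, while the mean share at day 6 was 3.84% ± 0.266 (SD, n = 4) over the libraries numbered 1 and 2.66% ± 0.176 (SD, n = 4) over those numbered 3. The percentage of all counts on mitochondrial genes moved with the number too, with 1.96% to 2.48% in the libraries numbered 1 and 4.15% to 9.09% in those numbered 3 at day 6, and its part in the members' values was not tested. A share also moves when other genes move, and in bulk RNA fewer cells of a type and less RNA per cell cannot be told apart.

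**Figure D1:**
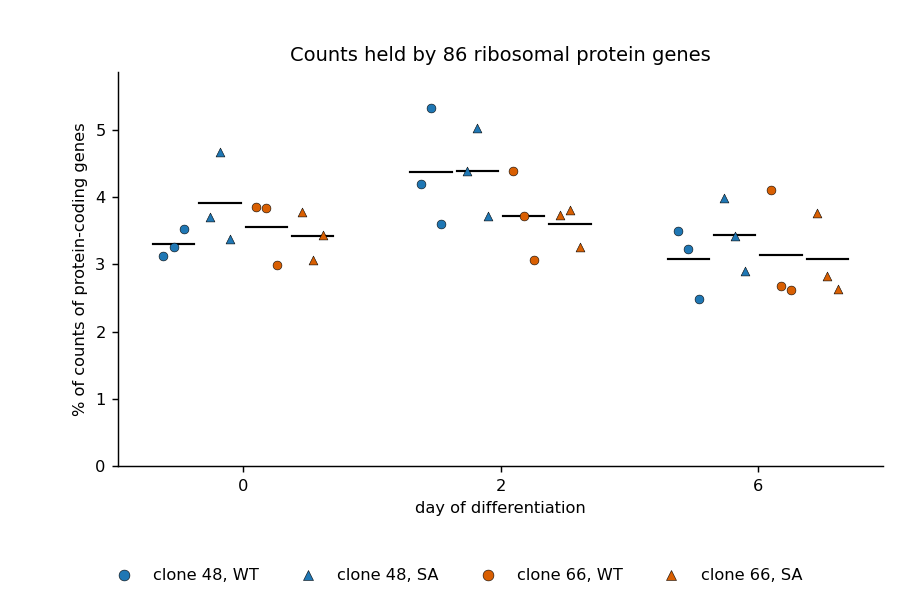
Percentage of the counts of protein-coding genes held by the 86 ribosomal protein genes (y axis) by day of differentiation (x axis). Each point is 1 library, coloured by clone and shaped by genotype, and black lines are means of 3 libraries. Values at day 2 reach 5.33%, and those at day 6 go down to 2.49%.

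Levels were compared between genes as TPM, which scale the counts per exon length to the same total in each library, calculated from the counts and the exon length in the files. Of the members, 84 passed the filter on low counts. The other 2 were the paralogs *Rpl10l*, with 0 to 1 count per library, and *Rpl39l*, with 0 to 2. Among the 84, the median member reached 422 TPM, 10 members were above 1000 TPM and 7 were below 100 TPM. The highest mean levels were those of *Rps15* (3183 TPM ± 548, SD, n = 36), *Rplp0* (2885 ± 645), *Rpl8* (2778 ± 613), *Rplp1* (2486 ± 698) and *Rpl32* (2101 ± 382). The SDs, which include the changes between days, are about as large as or larger than the gaps between these neighbours in the order. Without the length, 7 of the 10 highest members remained among the 10 highest.

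*Rpl3l*, the muscle paralog of *Rpl3*, was at 0.760 TPM ± 0.403 (SD, n = 36), with 1 to 20 counts per library. *Rps27rt*, a retrotransposed copy of *Rps27*, was at 22.7 TPM ± 6.91, *Rps10* at 34.9 ± 9.06, *Rpl36al* at 48.0 ± 15.4 and *Rps19bp1* at 53.7 ± 14.96. The lowest tested members thus include paralogs and *Rps19bp1*, beside *Rps10*, which encodes a protein of the small subunit. The lengths join all annotated exons, retained introns included, which lowers a value per length. Read pairs that fit several places were not counted, and 298 named pseudogenes resemble 60 of the members, so members with close copies are undercounted by an amount that was not measured. The pseudogenes of *Rps10* held 17.7% as many counts as *Rps10* itself, those of *Rpl31* 15.97% and those of *Rps13* 10.2%.

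Most ribosomal protein genes rose between days 0 and 2. Of the 84 tested members, 64 were higher at day 2 (76.2%, against 35.8% of all 16723 genes tested) and 2 were lower (against 37.5% of all genes), at an adjusted p-value under 0.05 in edgeR's quasi-likelihood test. The median log2 fold change was 0.41, a 1.33-fold rise, with quartiles of 0.29 and 0.55 and a median standard error (SE) of 0.11. The median was 0.44 for large and 0.40 for small subunit genes. In single genes the rise mostly stayed within the scatter of the libraries, and 12 of the 84 members had all 12 values at day 2 above all 12 values at day 0, against 14.6% of all genes. With the replicate number of each clone as a block, 68 members were higher and 4 lower, the latter joined by *Rpl10* (adjusted p = 0.0219) and *Rps27* (adjusted p = 0.00443). Leaving out the libraries of clone 48 or clone 66 numbered 3 left 1 lower member each. *Rps16*, with an SE of 0.65, *Rps27* and *Rpl10* were among the 18 members that passed in neither direction.

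The size of the median rise depended on the scaling, and its sign did not. Scaling by library size alone, without TMM factors (trimmed mean of M values), 30 members were higher and 4 lower and the median log2 fold change was 0.15. That scaling moved the median of all genes from -0.02 to -0.27. Relative to all genes, the members' median lay 0.43 above with either scaling.

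The acidic stalk protein gene *Rplp2* rose most. It measured 200 to 320 CPM at day 0 (median 256) and 492 to 878 CPM at day 2 (median 599), and no library at day 2 overlapped with day 0 (log2 fold change 1.27, SE 0.10, adjusted p = 2.9e-13). At day 6 it lay between 318 and 481 CPM (median 403), overlapping slightly with day 0 (log2 fold change 0.63, SE 0.10, adjusted p = 1.5e-06). The other stalk genes rose less. *Rplp1* rose by 0.62 (SE 0.10, adjusted p = 9.4e-07) and *Rplp0*, whose product anchors the stalk, by 0.40 on the log2 scale (SE 0.09, adjusted p = 0.00017).

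*Rpl27* had the next largest rise among core proteins, from 58.0 to 104 CPM (median 79.5) at day 0 to 146 to 218 CPM (median 174) at day 2, without overlap (log2 fold change 1.06, SE 0.11, adjusted p = 1.4e-10). *Rps19bp1* went from a median of 15.8 to 33.6 CPM (log2 fold change 1.00, SE 0.10, adjusted p = 7.5e-11) and *Rps27l*, a paralog of *Rps27* known as a target of p53, from 89.3 to 163 CPM (0.93, SE 0.15, adjusted p = 8.7e-07). *Rpl9* rose from 314 to 597 CPM (median 393) to 580 to 1090 CPM (median 763), with a slight overlap of the days (0.91, SE 0.13, adjusted p = 8.2e-08).

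RPL5 and RPL11 bind the 5S rRNA and can hold back MDM2. *Rpl11* rose by 0.52 on the log2 scale (SE 0.07, adjusted p = 2.3e-08), from 137 to 202 CPM at day 0 to 220 to 279 CPM at day 2, and the 2 days did not overlap. *Rpl5* missed the threshold, with 170 to 351 CPM at day 0, 228 to 351 CPM at day 2 and a log2 fold change of 0.23 (SE 0.10, adjusted p = 0.051), and passed it with the replicate block (adjusted p = 0.0038). *Rps6*, which encodes the substrate of the S6 kinases, had 161 to 332 CPM at day 0 and 221 to 421 CPM at day 2, which overlapped (0.41, SE 0.11, adjusted p = 0.0015). *Rpsa* rose by 0.40 (SE 0.11, adjusted p = 0.0014). With library size alone *Rps6*, *Rpsa* and *Rplp0* did not pass.

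The 2 members that were lower at day 2 have few counts. *Rpl3l* fell from a median of 10 counts per library at day 0 (4 to 20) to 4 at day 2 (1 to 8), with a log2 fold change of -1.19 (SE 0.24, adjusted p = 5.2e-05). *Rps27rt* fell from 78 counts (36 to 105) to 46.5 (31 to 62), with a log2 fold change of -0.36 (SE 0.15, adjusted p = 0.030), and did not pass with no filter or without the libraries of either clone numbered 3, of clone 48 numbered 2 or of clone 66 numbered 1.

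Between days 2 and 6 the members came down again. Of the 84, 62 were lower at day 6 (73.8%, against 30.1% of all genes) and 2 were higher (against 31.9%), with a median log2 fold change of -0.40 (0.757-fold). Under the replicate block 69 were lower and 2 higher. Without the libraries of clone 66 numbered 1, 1 member was higher. Of the members, 55 were both higher at day 2 than at day 0 and lower at day 6 than at day 2, which 20% of all genes were as well. The comparisons share the day 2 libraries, so these are not independent counts. 9 members had all values at day 6 below all values at day 2, against 7.39% of all genes.

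The core small subunit gene *Rps2* fell most, from 1238 to 2191 CPM (median 1535) at day 2 to 556 to 835 CPM (median 630) at day 6, without overlap (log2 fold change -1.25, SE 0.10, adjusted p = 4.5e-13). *Rpl12*, which lies at the base of the stalk, fell from 727 to 1315 CPM (median 910) to 342 to 685 CPM (median 456), also without overlap (-1.06, SE 0.11, adjusted p = 6.4e-10). *Rpl22l1* fell by 1.03 (SE 0.12, adjusted p = 3.8e-09), *Rpl27* by 0.81 (SE 0.11, adjusted p = 7.5e-08) and *Rplp1* by 0.75 (SE 0.10, adjusted p = 3.7e-08) on the log2 scale. *Rpl9* had 557 to 1105 CPM (median 710) at day 6 and a log2 fold change of -0.09 (SE 0.13), which did not pass the test. The 2 members that rose were again *Rpl3l* (1.58, SE 0.24, adjusted p = 4.8e-07), with 7 to 18 counts at day 6, and *Rps27rt* (0.37, SE 0.15, adjusted p = 0.032), the latter not without the libraries of clone 48 numbered 2 or of clone 66 numbered 1.

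**Figure D2:**
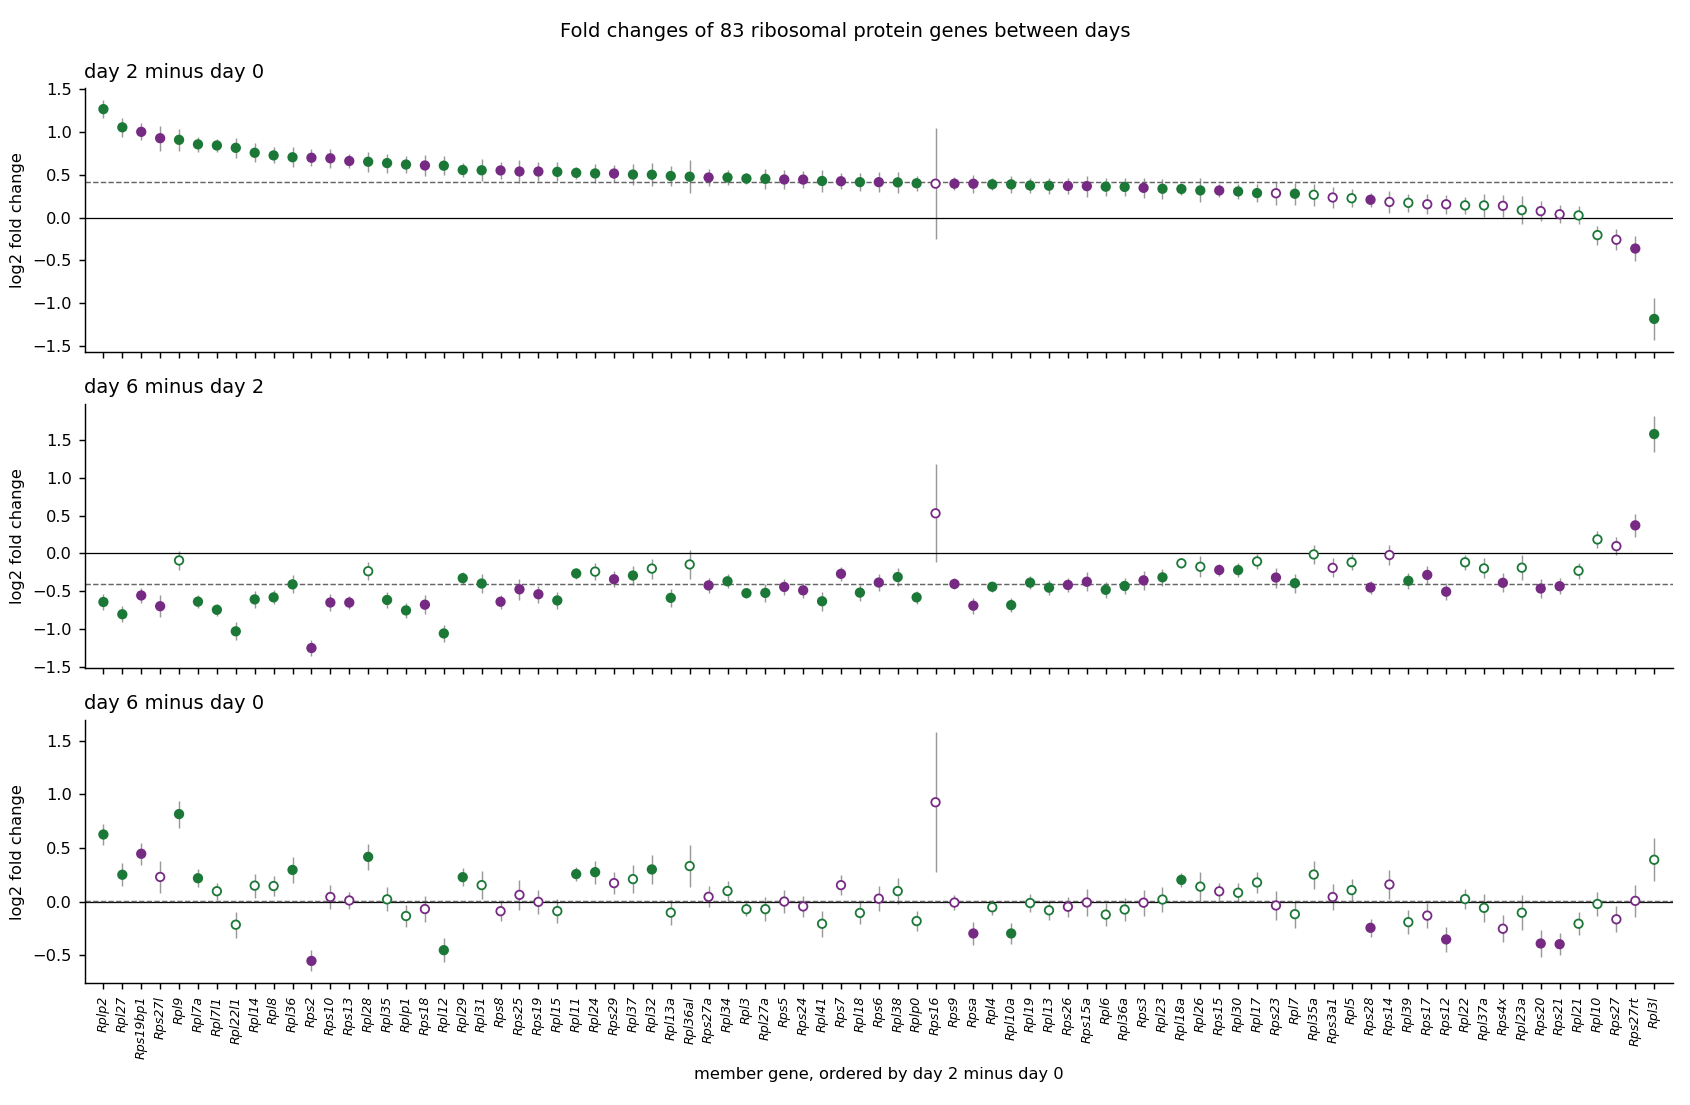
Log2 fold change (y axis) of 83 of the 84 tested members (x axis) between pairs of days. Green marks large and purple small subunit symbols, filled points passed the test, grey bars are standard errors, and the dashed line is the median of all 84. The median lies at 0.41 in the upper, -0.40 in the middle and 0.01 in the lower panel.

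At day 6 the group as a whole stood close to its level before differentiation, with single members on either side. The median log2 fold change between days 0 and 6 was 0.01, and 13 members were higher (15.5%, against 32.9% of all genes) and 8 lower (9.5%, against 35.4%). With library size alone the split turned to 4 higher and 30 lower with a median of -0.17, while the median of all genes moved from -0.03 to -0.22. With the replicate block 17 were higher and 15 lower, the latter including *Rplp0* (adjusted p = 0.041), *Rpl22l1* (adjusted p = 0.0073), *Rpl39* (adjusted p = 0.049), *Rps27* (adjusted p = 0.050) and *Rps4x* (adjusted p = 0.0051). Leaving out the libraries numbered 1 gave 8 higher members for clone 48, and for clone 66 it gave 7 higher and 13 lower.

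Those above day 0 at day 6 were led by *Rpl9* (log2 fold change 0.82, SE 0.13, adjusted p = 7.1e-07) and *Rplp2*, and included *Rps19bp1* (0.45, SE 0.10, adjusted p = 0.00021) and *Rpl28* (0.42, SE 0.12, adjusted p = 0.0025). Those below day 0 were led by *Rps2* (-0.55, SE 0.10, adjusted p = 8.1e-06) and *Rpl12* (-0.45, SE 0.11, adjusted p = 0.00071), with *Rps21* (-0.40, SE 0.10, adjusted p = 0.0011), *Rps20* (-0.39, SE 0.12, adjusted p = 0.0053) and *Rps12* (-0.35, SE 0.11, adjusted p = 0.0072). *Rpsa* was lower by 0.30 on the log2 scale (SE 0.11, adjusted p = 0.016) and *Rpl11* higher by 0.26 (SE 0.07, adjusted p = 0.0012). Of these, *Rpl9*, *Rplp2*, *Rps19bp1*, *Rps2*, *Rpl12*, *Rps21* and *Rps20* passed in the same direction under all 16 alternatives, the one without TMM scaling included. *Rpsa* did not pass without the libraries of clone 48 numbered 3 or those of clone 66 numbered 2 or 3, *Rps12* not without those of clone 66 numbered 3, and *Rpl11* and *Rpl28* not with library size alone.

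**Figure D3:**
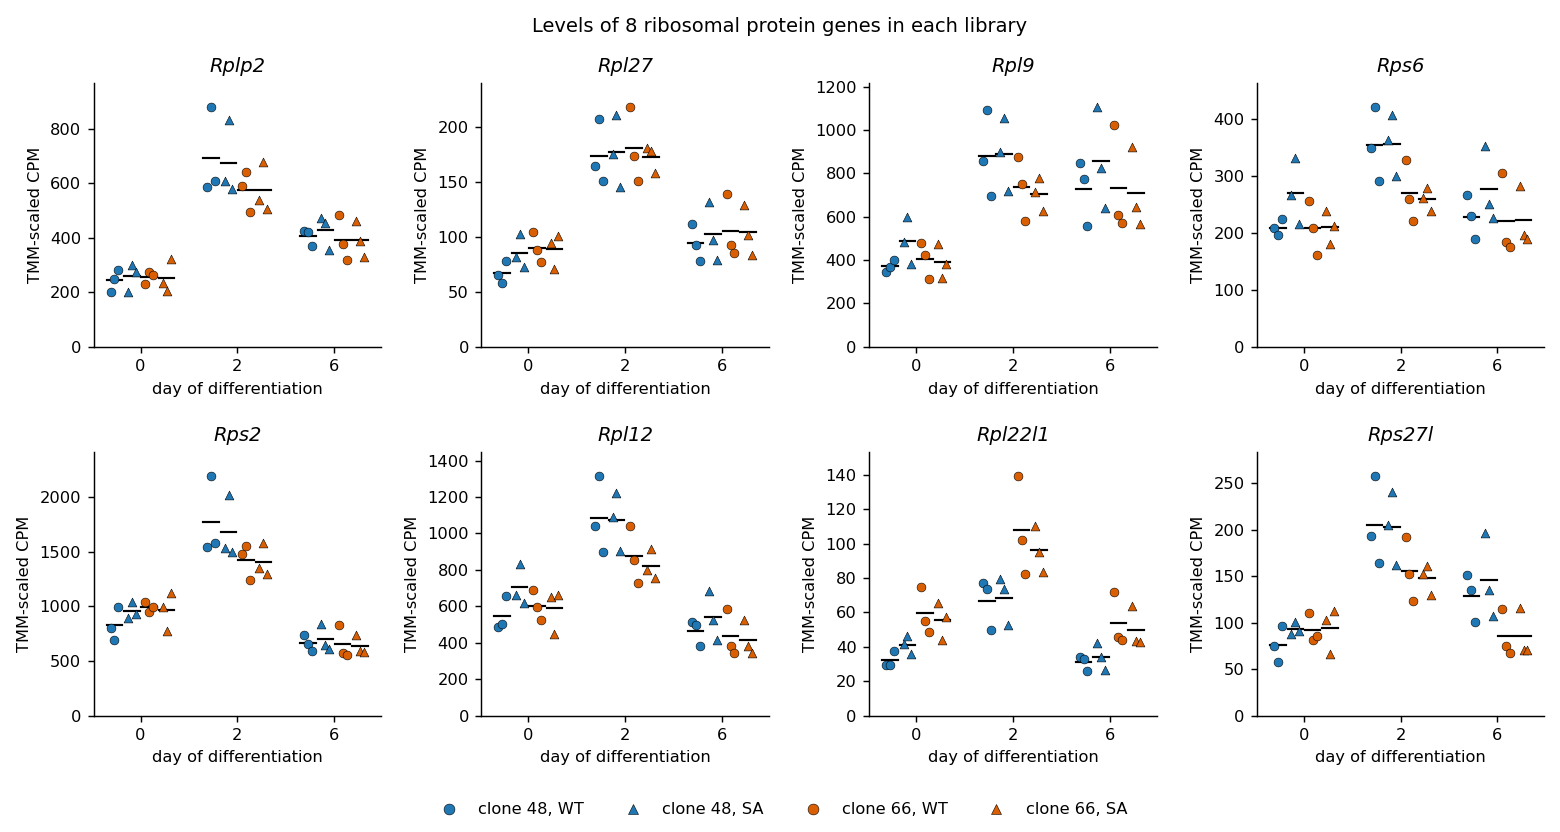
TMM-scaled CPM (y axes, from 0) of 8 members by day (x axes). Each point is 1 library, coloured by clone and shaped by genotype, and black lines are means of 3 libraries. *Rplp2* and *Rpl27* at day 2 lie above every library of day 0, and *Rps2* and *Rpl12* at day 6 lie below every library of day 2. The values of *Rpl9* at day 6 overlap with those at day 2.

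The make-up of the member counts was also read directly, as each gene's percentage of the members' summed counts in its library, a measure that no library scaling can move. From day 0 to day 2 the percentages of 6 of the 84 tested members rose without overlap (among them *Rpl27*, *Rpl7a*, *Rpl7l1*, *Rpl9* and *Rplp2*) and those of 5 fell without overlap (*Rpl10*, *Rpl22*, *Rps20*, *Rps21* and *Rps27*). Such percentages were not computed for other sets of genes, so these counts have no reference. A rise of some members also lowers the percentages of the others. *Rplp2* went from 0.679% to 1.09% of the member counts at day 0 (median 0.863%) to 1.34% to 1.69% at day 2 (median 1.55%) and 1.24% to 1.54% at day 6 (median 1.34%). *Rpl9* rose at both steps, from a median of 1.40% to 1.96% and 2.48%. *Rps2* made up a median of 3.22%, 3.85% and 2.20% on the 3 days, and its values at day 6 (2.10% to 2.46%) lay below all others. *Rps6*, at medians of 0.765%, 0.766% and 0.790%, took nearly the same part of the member counts throughout, and its ranges overlapped on all days.

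The sum of large over the sum of small subunit counts rose from 1.40 to 1.45 at day 0 (mean 1.43 ± 0.019, SD, n = 12) to 1.503 to 1.548 at day 2 (mean 1.52 ± 0.017) and 1.53 to 1.59 at day 6 (mean 1.56 ± 0.018). Days 0 and 2 did not overlap, and their gap was larger than the spread between libraries, although the members' share of counts varied widely in the same libraries. The step from day 2 to day 6 rested on *Rps2*: without that gene the ratio was 1.64 to 1.72 at day 2 and 1.62 to 1.68 at day 6. Calculated per length, the ratio was 1.43 to 1.61 at day 0, 1.59 to 1.66 at day 2 and 1.56 to 1.67 at day 6, and the days overlapped.

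Members were also grouped by what they carry at their start or inside them, and no difference between the groups was tested. The 21 members whose listed start lies in a pyrimidine run had a median log2 fold change of 0.45 between days 0 and 2. Of these, 16 were higher and 1 lower. The 43 tested members with a listed start outside such a run had 0.40, with 33 higher and 1 lower. Over all genes tested, 35.8% were higher and 37.5% lower. Members whose run begins 1 base after the listed start, such as *Rpl12* and *Rpl22l1*, count as outside. This split therefore cannot separate TOP mRNAs from others. The 30 snoRNA hosts had a median of 0.38 and the other 54 tested members 0.44. The counting ignored the strand, and 24 members overlap a gene on the other strand. Those had a median of 0.52 and the other 60 tested members 0.40.

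Levels of paralogs were read as a percentage of the level of their parent gene, a description with no test of the ratio. *Rps27l* stood at a median of 38.0% of the TPM level of *Rps27* at day 0 (25.4% to 52.3%), 83.98% at day 2 (69.7% to 99.03%) and 48.7% at day 6 (31.9% to 68.0%), and day 2 lay above both other days in all libraries. The clones did not overlap at day 2 (91.2% to 99.03% in clone 48 and 69.7% to 76.8% in clone 66) and day 6 (57.8% to 68.0% and 31.9% to 39.5%), and in clone 66 the median at day 6, 36.8%, was near that of day 0, 38.9%. *Rps27* itself had a log2 fold change of -0.26 (SE 0.12, adjusted p = 0.052) between days 0 and 2. *Rpl22l1*, which can take the place of *Rpl22*, was at 18.3% of *Rpl22* at day 0 (11.95% to 28.8%), 30.1% at day 2 (19.6% to 47.2%) and 15.2% at day 6 (10.95% to 22.5%), and was higher in clone 66 without overlap on each day. *Rpl22l1* rose by 0.82 (SE 0.12, adjusted p = 2.3e-07) between days 0 and 2, and *Rpl22* had 0.14 (SE 0.10, adjusted p = 0.18).

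*Rpl7l1*, whose product acts in ribosome assembly, rose by 0.84 on the log2 scale (SE 0.08, adjusted p = 9.4e-12) and then fell by 0.75 (SE 0.08, adjusted p = 3.2e-10). Its median level relative to *Rpl7* was 14.8%, 20.3% and 17.2% on the 3 days, with overlapping ranges. *Rpl7* had 0.28 (SE 0.13, adjusted p = 0.048), a call kept in 10 of 16 alternatives and lost with RLE size factors, with library size alone and without the libraries of clone 48 numbered 1 or 2 or of clone 66 numbered 2 or 3, and fell by 0.39 (SE 0.13, adjusted p = 0.0076). *Rpl36al* reached 24.7%, 24.3% and 30.2% of *Rpl36a*. *Rpl36a* rose by 0.36 (SE 0.11, adjusted p = 0.0041) and *Rpl36al* by 0.48 (SE 0.20, adjusted p = 0.028), but *Rpl36al* did not pass without the libraries of clone 48 numbered 1 or 2 or of clone 66 numbered 2, and neither passed with library size alone. The levels of *Rpl3l* against *Rpl3* stayed at or below 0.377%, while *Rpl3* rose by 0.46 (SE 0.06, adjusted p = 1.1e-07) and fell by 0.53 (SE 0.06, adjusted p = 9.8e-09). The X-linked parents *Rpl10* (-0.20, SE 0.11), *Rpl39* (0.17, SE 0.11) and *Rps4x* (0.14, SE 0.13) did not pass between days 0 and 2. *Rpl39* (-0.36, SE 0.11, adjusted p = 0.0044) and *Rps4x* (-0.39, SE 0.13, adjusted p = 0.0084) were lower at day 6 than at day 2, *Rps4x* not without the libraries of clone 48 numbered 2.

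Genes that build or serve the ribosome were set beside its proteins, from lists drawn up by function. Over all genes tested, 35.8% were higher and 37.5% lower at day 2 than at day 0, 31.9% and 30.1% at day 6 than at day 2, and 32.9% and 35.4% at day 6 than at day 0, and each count below is to be read against these. *Rack1* and *Fau*, whose proteins sit on the small subunit, rose by day 2, with log2 fold changes of 0.55 and 0.27. Of 45 ribosome biogenesis factors, 43 rose (median 1.09) and 1 fell by day 2, and 40 fell (median -1.12) and none rose by day 6. They include *Tsr1*, which matures the small subunit (2.05 and -2.13), *Nop56*, of the rRNA methylation complex (1.61 and -1.97), and *Rrp12*, an export factor of both subunits (1.92 and -1.91). Between days 0 and 6, 9 of them were higher and 11 lower, shares below those of all genes, with a median of 0.02. The 15 tested genes of RNA polymerase I and its cofactors split into 9 higher and 2 lower at day 2 and 11 lower at day 6 than at day 2. Among them *Rrn3*, the initiation factor that recruits the polymerase, rose by 1.16 (SE 0.08, adjusted p = 1.5e-15). Of 7 tested chaperones and importers of ribosomal proteins, 6 rose by day 2 (median 0.76), with *Grwd1*, a chaperone of RPL3, at 1.02 and *Heatr3*, an import factor for RPL5, at 1.01, and 6 fell by day 6.

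Against the same shares of all genes, of 36 initiation factors 29 rose and 1 fell by day 2 (median 0.75), 25 fell and 3 rose from day 2 to day 6, and 15 were higher and none lower at day 6 than at day 0 (median 0.21), led at day 2 by *Eif2b3* (1.56) and *Eif2s2* (1.28). Of 9 tested genes listed under elongation, not all of which encode elongation factors, 6 rose and 2 fell by day 2. *Eef1e1* at 1.90 and *Eif5a* at 1.42 lay above, and *Eif5a2* at -1.30 and *Eef2k*, the kinase that inhibits EEF2, at -1.09 below. The 18 other genes known to have a TOP mRNA, some of which are in the lists above, had a median of 0.30 at day 2 with 11 higher and 1 lower, and -0.34 from day 2 to day 6 with 10 lower and 2 higher.

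Of 15 tested genes of the mTORC1, S6 kinase and LARP1 list, 11 rose and 2 fell by day 2. *Eif4ebp1*, which encodes the translation inhibitor 4E-BP1, and *Myc*, a driver of ribosome production, rose by 2.18 (SE 0.10, adjusted p = 2.1e-20) and 2.13 (SE 0.26, adjusted p = 5.0e-09) and were still 2.14 and 1.94 above day 0 at day 6. *Deptor*, an mTOR inhibitor, fell by 1.26 on the log2 scale (SE 0.23, adjusted p = 9.4e-06) and rose again by 1.51 by day 6. *Pdcd4*, a substrate of S6K1 that blocks eIF4A, rose by 1.70 (SE 0.20, adjusted p = 4.0e-09) from day 2 to day 6. Of the 9 tested *Rps6k* genes that the symbol rule leaves out, 4 rose and 3 fell by day 2, near the shares of all genes (35.8% and 37.5%).

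Of the 77 tested mitochondrial ribosomal protein genes, 72 were higher and none lower at day 2 than at day 0 (median 0.93, against 35.8% and 37.5% of all genes), and at day 6, 66 were still higher and 1 lower than at day 0 (median 0.47, against 32.9% and 35.4% of all genes), where the cytosolic set had 13 higher and 8 lower and a median of 0.01. Of the 38 tested proteasome subunit genes, 32 rose by day 2 (median 0.81), and at day 6 their median against day 0 was 0.00 with 11 higher and 6 lower, shares below those of all genes. No difference between these sets was tested.

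WT and SA cells were compared on each day, since the study asked whether serine 22 of RXRα matters for differentiation. No ribosomal protein gene passed the test at day 0, 2 or 6 in edgeR's quasi-likelihood test, in DESeq2 or under the other alternatives, none had an unadjusted p-value under 0.05, and 0% of all genes were called. At day 0 the SA libraries were higher for 77 of 84 members, with a median log2 fold change of 0.12 and a median SE of 0.16. The difference between the clones in this genotype effect, given below, had a median of -0.35 (clone 66 minus clone 48). In clone 48 the members held 3.38% to 4.67% of the protein-coding counts in SA and 3.13% to 3.52% in WT at day 0, and in clone 66 they held 3.06% to 3.77% and 3.00% to 3.85%, and both pairs of ranges overlapped. The median log2 fold changes for genotype were -0.03 at day 2, with 69 of 84 members lower in SA, and 0.05 at day 6, with 77 higher. These signs were not tested. Apart from *Rpl3l* the log2 fold changes lay between -0.10 and 0.22 at day 0, between -0.52 and 0.09 at day 2 and between -0.08 and 0.14 at day 6. *Rps6* measured 161 to 257 CPM in WT (median 209) and 180 to 332 CPM in SA (median 227) at day 0, and the genotypes overlapped.

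The smallest p-values for genotype belonged to *Rpl3l* (0.54, SE 0.29), *Rpl39* (0.21, SE 0.15) and *Rpl5* (0.19, SE 0.15) at day 0, to *Rpl6* (-0.15, SE 0.15), *Rpl11* (0.08, SE 0.10) and *Rps13* (-0.07, SE 0.11) at day 2, and to *Rpl3l* (0.41, SE 0.27), *Rpl34* (0.12, SE 0.13) and *Rpl24* (0.14, SE 0.15) at day 6, each with an adjusted p of 1. The interaction of genotype and time called 0 members and 0% of all genes for each pair of days, with 0 members at an unadjusted p-value under 0.05 and 0 in DESeq2. The members with the smallest p-values there were *Rpl3l* (-0.66, SE 0.50), *Rpl39* (-0.26, SE 0.22) and *Rpl5* (-0.23, SE 0.21) for days 0 and 2, *Rpl7l1* (-0.14, SE 0.16), *Rpl28* (0.19, SE 0.24) and *Rpl39* (-0.17, SE 0.22) for days 0 and 6, and *Rpl3l* (0.53, SE 0.49), *Rpl24* (0.19, SE 0.21) and *Rpl13* (0.15, SE 0.19) for days 2 and 6. The genotype effect was also compared between the clones. 0 members and 0% of all genes were called on any day by edgeR or DESeq2 in this comparison, itself chosen after seeing the data, and 74 of the 84 members had a negative value at day 0, 1 of them with an unadjusted p-value under 0.05, *Rpl24* (-0.63, SE 0.29, adjusted p = 0.98). The other days leaned the same way, with 74 negative at day 2 (median -0.08) and 77 at day 6 (median -0.22).

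The day changes appeared in each clone, which are also the values within each pool. In clone 48, 58 members were higher and 0 lower at day 2 than at day 0 (against 32.3% and 33.1% of all genes), with a median of 0.51, and in clone 66, 41 were higher and 1 lower (29.5% and 32.1%), with a median of 0.35. Without the libraries of clone 66 numbered 2, 20 were higher in that clone, and with library size alone 29 were higher in clone 48 and 8 in clone 66. From day 2 to day 6, 54 were lower and 1 higher in clone 48 (24.9% and 26.3% of all genes), and 42 lower and 1 higher in clone 66 (23.7% and 26.9%). Those lower numbered 27 in clone 48 without its libraries numbered 2, and 13 or 25 in clone 66 without its libraries numbered 2 or 3. Between days 0 and 6, 7 were higher and 2 lower in clone 48 (27.8% and 28.6% of all genes), and 8 higher and 6 lower in clone 66 (27.8% and 29.9%). The last comparison was unsteady. In clone 48 it gave 2 higher and 6 lower without the libraries numbered 1, 1 and 0 lower without those numbered 2 and 3, 1 lower without those of clone 66 numbered 2, 4 lower without the library rich in *Lars2*, and 4 higher and 10 lower with library size alone. In clone 66 it gave 1 higher and 11 lower without the libraries numbered 1, 2 and 1 lower without those numbered 2 and 3, and 2 higher and 17 lower with library size alone. A replicate block within each clone, chosen after the data had been seen, gave 11 higher and 8 lower in clone 48 and 10 lower in clone 66. It also gave 1 lower member in clone 48 and 3 in clone 66 between days 0 and 2, and 2 higher in clone 66 between days 2 and 6. Most calls gained with this block went in the main direction. In each clone more members were then higher at day 2 than at day 0, and more were lower at day 6 than at day 2. More were also higher in clone 66 between days 0 and 6.

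The day changes were not shown to differ between the clones for any member in edgeR's quasi-likelihood test. For days 0 and 2, 0 members passed and 4 had an unadjusted p-value under 0.05, where 6.84% of all genes were called. For days 2 and 6 the numbers were 0 and 0 with 6.18% of all genes, and for days 0 and 6 they were 0 and 2 with 3.85%. The closest to the threshold were *Rps27l* between days 0 and 6 (difference of log2 fold changes -0.84, SE 0.27, adjusted p = 0.079) and *Rpl3l* between days 0 and 2 (-1.44, SE 0.46, adjusted p = 0.055). Those next in order were *Rps2* (-0.45, SE 0.19) and *Rps27l* (-0.60, SE 0.27) between days 0 and 2, *Rpl7a* (0.29, SE 0.17), *Rpl8* (0.29, SE 0.18) and *Rpl10* (0.35, SE 0.22) between days 2 and 6, and *Rpl3l* (-0.76, SE 0.36) and *Rplp1* (-0.26, SE 0.19) between days 0 and 6. *Rps27l* passed with the replicate block (adjusted p = 0.015) and *Rpl3l* with the block (adjusted p = 0.037). Between days 0 and 6, 1 member passed in DESeq2, with no filter, and without the libraries of clone 48 numbered 3 or of clone 66 numbered 1, and between days 0 and 2, 1 passed in edgeR's version 4 form.

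Clone 66 differed from clone 48 in some members on each day, and these lay on chromosomes whose other genes had a median of the same sign. At day 0, 3 members were higher (against 12.6% of all genes) and 3 lower (against 11.1%) in clone 66. At day 2 the numbers were 3 higher (14.5%) and 16 lower (15.5%), and at day 6 they were 3 higher (13.4%) and 6 lower (12.8%). At day 2, 67 of the 84 members lay below 0 with a median of -0.20, where the median of all genes was -0.01, while the members' median was -0.02 before induction and 0.00 by day 6. All 34 calls had the sign of the median of the other tested genes of their chromosome, 6 of 6 at day 0, 19 of 19 at day 2 and 9 of 9 at day 6, and of the 84 members 71, 62 and 74 did. Some genes were called on several days, and the same share was not computed for all called genes. At day 2 chromosomes 2, 4, 5 and 10, which held lower calls, had medians of only -0.08 to -0.10. On chromosome 7, with a median of 0.08 at day 2, 2 of the 14 members lay above 0. The chromosomes were compared only once values were known. The counts of lower members moved strongly with single sets of libraries. At day 2 they were 2 without the libraries of clone 48 numbered 2, 26 without those numbered 3, and 5 without those of clone 66 numbered 3. At day 6 they were 3, 2 and 17 without those of clone 48 numbered 1, clone 48 numbered 2 and clone 66 numbered 1, and 0 and 1 without those of clone 66 numbered 2 and 3. At day 0 there was 1 lower member without the libraries of clone 48 numbered 2. The higher members numbered 1 at day 2 without the libraries of clone 48 numbered 3 or clone 66 numbered 1, and 1 at day 6 without the latter.

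The 3 members that were higher in clone 66 were the same on every day. *Rpl17* and *Rps14* are the members on chromosome 18. *Rpl17* measured 196 to 306 CPM in clone 48 (median 207) and 287 to 405 CPM in clone 66 (median 357) at day 0, which overlapped slightly, 230 to 325 and 355 to 544 CPM at day 2, and 187 to 319 and 360 to 570 CPM at day 6, and on the later days the clones did not overlap. Its log2 differences were 0.67 (SE 0.15, adjusted p = 0.00095), 0.59 (SE 0.15, adjusted p = 0.0026) and 0.75 (SE 0.15, adjusted p = 0.00029), and it passed under all 16 alternatives on each day. Those of *Rps14* were 0.67 (SE 0.19, adjusted p = 0.0092), 0.54 (SE 0.19, adjusted p = 0.029) and 0.69 (SE 0.19, adjusted p = 0.0069). *Rps14* did not pass at day 0 without the libraries of clone 48 numbered 1, at day 2 with library size alone or without the libraries of clone 48 numbered 1 or 3 or of clone 66 numbered 1 or 2, and at day 6 without those of clone 66 numbered 1. The other 463 tested genes of chromosome 18 had medians of 0.76, 0.72 and 0.71 on the 3 days, a 1.70-fold, 1.65-fold and 1.64-fold difference, and 67.8%, 65.4% and 65.9% of them were higher in clone 66. On the 18 chromosomes other than 18 and X, the medians lay between -0.37 and 0.29 at day 0.

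*Rpl22l1*, on chromosome 3, was higher in clone 66 by 0.66 (SE 0.18, adjusted p = 0.0059), 0.57 (SE 0.17, adjusted p = 0.014) and 0.66 (SE 0.18, adjusted p = 0.0054). The other genes of chromosome 3 had medians of 0.29, 0.28 and 0.26. It measured 49.95 to 79.5 CPM in clone 48 and 82.4 to 139 CPM in clone 66 at day 2, without overlap, and did not pass at day 2 without the libraries of clone 48 numbered 3 or of clone 66 numbered 1, and at day 6 without the latter.

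Among the lower members, *Rps7* on chromosome 12 measured 253 to 496 CPM in clone 48 and 181 to 250 CPM in clone 66 at day 0, without overlap (-0.59, SE 0.13, adjusted p = 0.0014). It was also lower at day 2 (-0.54, SE 0.13, adjusted p = 0.0026) and day 6 (-0.46, SE 0.13, adjusted p = 0.011, not passing without the libraries of clone 66 numbered 2 or 3), on a chromosome whose other genes had medians of -0.37, -0.33 and -0.38. *Rpl29* on chromosome 9 was lower on each day by 0.40 to 0.43 on the log2 scale (SE 0.12 on each day, adjusted p = 0.018, 0.0080 and 0.016), beside medians of -0.20, -0.23 and -0.26 for its chromosome, but at day 0 it did not pass without the libraries of clone 48 numbered 2 or 3 or of clone 66 numbered 1 or with the libraries of day 0 fitted alone, at day 2 without those of clone 48 numbered 2, and at day 6 without those of either clone numbered 2 or 3. Chromosome 9 also held *Rpsa*, lower at day 2 (-0.59, SE 0.15, adjusted p = 0.0041) and day 6 (-0.48, SE 0.15, adjusted p = 0.019), *Rpl14* at day 2 (-0.54, SE 0.16, adjusted p = 0.010) and *Rps27l* at day 6 (-0.70, SE 0.19, adjusted p = 0.0064). *Rps27l* measured 101 to 197 CPM in clone 48 and 67.0 to 116 CPM in clone 66 at day 6, which overlapped. Of the 4 X-linked members, *Rpl39* was lower at days 0 (-0.44, SE 0.16, adjusted p = 0.041) and 2 (-0.42, SE 0.16, adjusted p = 0.043), and *Rpl10* (-0.58, SE 0.15, adjusted p = 0.0043) and *Rps4x* (-0.59, SE 0.18, adjusted p = 0.015) at day 2. The other X-linked genes had medians of -0.34, -0.31 and -0.38. *Rpl41* on chromosome 10 (-0.63, SE 0.18, adjusted p = 0.0084) lay furthest below its chromosome's median of -0.10 among the calls at day 2. *Rps29* on chromosome 12 was lower at day 6 (-0.42, SE 0.15, adjusted p = 0.046). Of the lower calls, *Rps7* at days 0 and 2 passed under all 16 alternatives, and no other did.

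**Figure D4:**
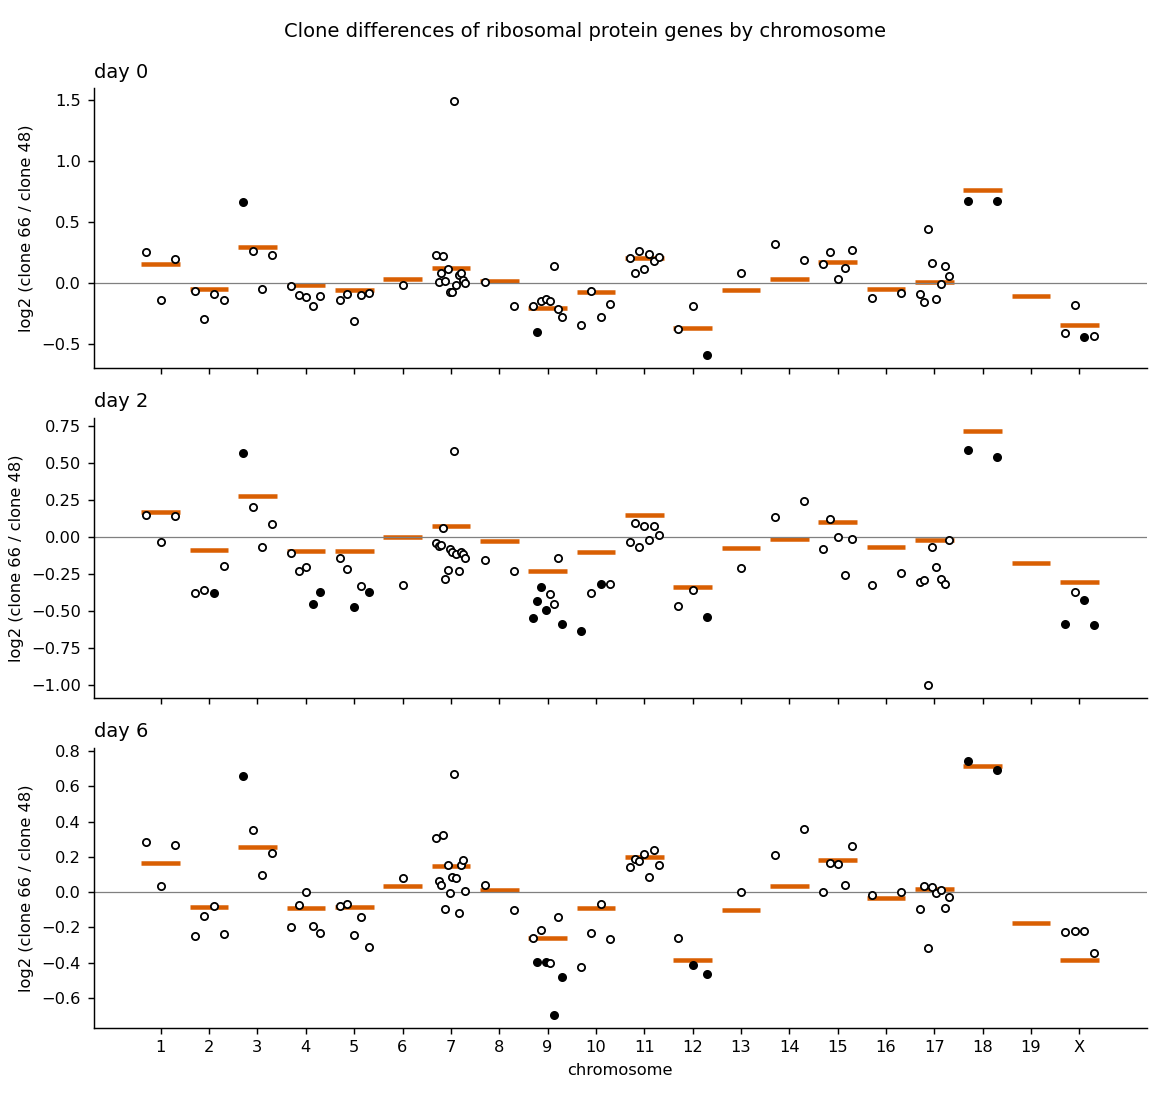
Log2 ratio of clone 66 to clone 48 (y axis) of the members by chromosome (x axis) on each day. Points are members, filled where they passed the test, and orange bars are medians of the other tested genes of the chromosome. Both members on chromosome 18 lie near its medians of 0.76, 0.72 and 0.71, and members on chromosomes 9, 12 and X lie mostly below 0.

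The scatter between replicates was described for each member, and 1 member stood apart. The pooled SD of log2 (CPM + 1) within a clone, genotype and day was 0.27 for the median member and 0.21 for the median of all tested genes. Adding 1 lowers the SD of genes with few counts, and the genes were not matched for level, so these 2 medians are not a like comparison. *Rps16*, a small subunit gene on chromosome 7, had an SD of 1.93, at percentile 99.96 among all tested genes. It measured 2.99 to 21.7 CPM in the 12 libraries numbered 1 (median 8.94), 5.27 to 144 CPM in those numbered 2 (median 31.4) and 20.5 to 173 CPM in those numbered 3 (median 112). In 12 of 12 groups the library numbered 3 was higher than the one numbered 1, by 3.25 on average on the log2 scale. No day change of *Rps16* could be told from this scatter, with SEs of 0.65 for each pair of days.

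The other direction was more frequent: 41 of 84 were lower in the library numbered 3 than in the one numbered 1 in at least 11 of 12 groups, and 5 were higher. The same count was not made over all tested genes, so it cannot be called particular to the members. The library numbered 3 was higher in 12 of 12 groups also for *Rpl28* (mean difference 0.50), *Rps29* (0.42) and *Rps26* (0.34). *Rpl36al* was lower in the library numbered 3 in 11 of 12 groups (mean difference -0.87), with 23.8 to 47.1 CPM in libraries numbered 1 and 15.9 to 26.04 CPM in those numbered 3. These 5 genes were chosen after their values had been seen. What the replicate numbers stand for in the laboratory is not given in the sources used here.

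**Figure D5:**
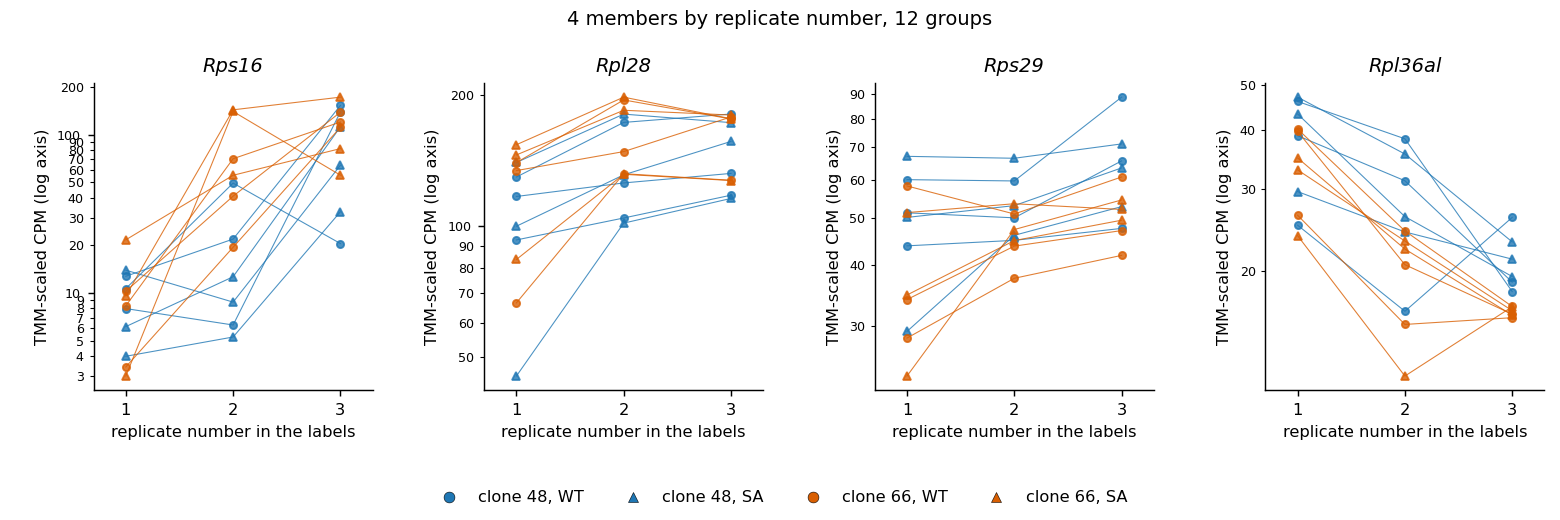
TMM-scaled CPM (y axes, logarithmic) of 4 members by the replicate number in the labels (x axes). Lines join the 3 libraries of a clone, genotype and day, coloured by clone and shaped by genotype. *Rps16* lies between 2.99 and 21.7 CPM in libraries numbered 1 and between 20.5 and 173 CPM in those numbered 3, and *Rpl36al* runs the other way.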

How the data were processed

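RNA was sequenced from 36 libraries in 12 groups of 3. The authors made the deposited counts of read pairs per gene from rRNA-depleted, paired-end libraries with STAR 2.7.0d and featureCounts 1.6.2 on GRCm38.p6 with GENCODE M21. Pairs were counted without regard to strand, and pairs with several places or genes were not counted. The counts were not normalized, and total counts of 11351078 to 24349263 limit precision only for the lowest members.

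From these counts, edgeR 4.0.16 (R 4.3.3) was used with TMM scaling, filterByExpr (16723 genes tested), the quasi-likelihood test and Benjamini-Hochberg adjustment over all genes tested, with calls at 0.05. Days and genotypes were fitted with genotype-day groups and clone, after the study's model, and clones with a term for each clone, genotype and day. DESeq2 1.42.0 was an alternative. CPM are TMM-scaled, and TPM used the exon lengths in the files. The scripts were tested on simulated data. WT and SA libraries with the same number in a clone and day deviated together (18 pairs, correlation 0.18 to 0.93 over 9378 genes), so the number was also fitted as a block. Over the members alone the correlation reached 0.99, but it was negative in clone 48 at day 0 for numbers 2 (-0.42) and 3 (-0.07). The block joined the libraries of a number in a clone across the 3 days, which these correlations within a day did not test.

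Named were stalk proteins, *Rpsa*, *Rpl5*, *Rpl11*, *Rps6*, paralog pairs, the 5 largest called changes in each direction between days and clones, the 3 smallest p-values of the other contrasts, and the 5 highest and lowest levels. The members and lists were chosen with earlier results of these data known. 2 members with few counts were not tested. Some items are not reported here.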

Additional observations from a re-analysis of the deposited data

Results flagged for a closer look

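Named pseudogenes of the ribosomal protein genes lie outside the genes compared in the report and also held counts. The 298 such genes had a median of 0.546% of the counts of the members (0.476% to 0.670% over the 36 libraries), or 2015 to 4832 counts per library. With these counts added to their members, no call or direction of the results recomputed changed.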

How the results depend on the processing

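The absence of genotype calls and the direction of the median change of the members from day 0 to day 2 and from day 2 to day 6 held under every alternative run. The replicate block gave 4 lower members between days 0 and 2 and 15 lower between days 0 and 6. With library size alone, 30 were higher and 4 lower between days 0 and 2 (median 0.15), and 4 higher and 30 lower between days 0 and 6. Without a filter, 1 was lower between days 0 and 2, and 5 and 10 were lower in clone 66 at days 0 and 2. For the difference between clones in the day change, 1 member was called between days 0 and 2 in edgeR's version 4 form and with the added replicate block, and 1 between days 0 and 6 in DESeq2, with no filter and with that block. For clone 66 against clone 48, the number as a replicate block shared by both clones, chosen after seeing the data, gave 9 lower members at day 0, 31 lower at day 2, and 8 higher and 12 lower at day 6. Libraries with the same number in the 2 clones deviated together in 16 of 18 pairs (correlation over 0.1, mean 0.54, lowest -0.35). The main fit of the clones did not use the numbers, so this shared deviation stayed in the spread against which its clone differences were tested. The causes were not tested.

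Leaving out one replicate number of one clone at a time gave 1 to 2 lower members between days 0 and 2, 1 to 2 higher between days 2 and 6, and 7 to 17 higher and 6 to 13 lower between days 0 and 6. In clone 66 against clone 48 it gave 1 to 4 lower at day 0, 1 to 4 higher and 2 to 26 lower at day 2, and 1 to 4 higher and 0 to 17 lower at day 6. The difference between clones in the change from day 0 to day 6 was called for 0 to 1 member.

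With library size alone the sign turned for *Rpl5* (-0.036 between days 0 and 2, -0.078 between days 0 and 6), *Rpl22* (-0.12 and -0.16), *Rps6* (-0.16 between days 0 and 6), *Rpl7l1* (-0.085, the same days), *Rpl39* (-0.089 between days 0 and 2) and *Rps4x* (-0.12, the same days). Between days 0 and 6, *Rpl10* turned to 0.031 with no filter, and without single replicates it ranged from -0.094 to 0.041, *Rps6* from -0.031 to 0.073 and *Rpl22* from -0.031 to 0.076. Depth limits *Rpl3l*, *Rpl10l* and *Rpl39l*.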
